A study of Mus musculus with 4 samples.

Results

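The interval from 1 h to 3 h after a single exposure to low-intensity pulsed ultrasound (LIPUS), which is applied clinically to healing bone, was examined in ST2 cells, an established stromal cell line from the bone marrow of BALB/c mice. The question was which transcripts that had been induced came down again over these 2 h, how far they came down, and which stayed high. The comparison was the 3 h array minus the 1 h array, with 1 array at each time. The brightest probe set stood for each gene with a single symbol, and a gene entered when at least 1 of the 2 arrays lay above log2 5.23, the median of all values. This left 11494 of 18193 genes. Of the 4 arrays in the series, both arrays of this step held cells treated for 20 min at 25 mW/cm2 and then returned to culture at 37 °C, for 1 h or for 3 h. An array at 0.5 h and an untreated control array served as reference points, for which genes had been induced and how far they returned. All cells grew in medium with 10% serum. The labels give no harvest time for the control cells and no sham exposure, and ST2 is a cell line that divides without limit, so the values describe this line rather than primary marrow stroma.

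Cells that meet a sudden stress or growth signal switch on immediate-early genes, whose transcription needs no new protein, and heat shock genes, which the factor HSF1 switches on when proteins misfold. Immediate-early messages such as those of Fos and Egr1 carry signals for rapid breakdown, and several of the proteins made early, among them ATF3 and JunB, act back on transcription. Heat shock messages are known to fade as newly made chaperones bind HSF1 again. A level on an array is the balance of synthesis and breakdown, and in bulk RNA fewer cells with a transcript and less transcript per cell cannot be told apart.

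The arrays were alike in overall signal. Median log2 signals ran from 5.21 to 5.25 over the 4 arrays, and the 1 h and 3 h arrays correlated with r = 0.997 (Pearson, across probe sets, which share their libraries and are not replicates). Between 1 h and 3 h, the probe sets for bacterial poly-A transcripts added as controls had a median log2 difference of 0.08 over 27 probe sets, and the change in the 5' minus 3' signal of 4 control transcripts ran from −0.00 to 0.16. Stromal markers were present, with 9 of the 10 that had a probe set above the floor at both times, among them Pdgfra, Col1a1 and Cxcl12, while Thy1 lay under it. All 9 measured stromal markers were above 0 in the step, by a median of 0.11. At 1 h, 3 of 7 macrophage markers, 1 of 5 endothelial markers, 1 of 3 adipocyte markers with a probe set, 0 of 2 B cell markers and 0 of 2 erythroid markers lay above the floor, with Csf1r, Lyz2, Cd14, Kdr and Fabp4 as the ones present. Ptprc, Adgre1, Itgam, Pecam1 and Cdh5, which define leukocytes, macrophages and endothelium, lay under it.

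From 1 h to 3 h the traffic ran downward. Of the measured genes, 10 fell at least 2-fold, which is 0.087%, and 0 rose by as much. Here "fell" and "rose" are kept for a change of at least 2-fold, or 1 on the log2 scale. At 1.5-fold, 52 genes were lower, or 0.452%, and 2 were higher, or 0.0174%. With 1 array per time there is no test and no p-value. The only error that can be given is technical. Differences between 2 probe sets of the same gene in this step, over 5081 genes, gave an SD per probe set of 0.10 on the log2 scale. This is the SD of the difference divided by the square root of 2, so the difference itself spread more widely. The spread between cultures was not measured. The median of all genes was −0.01, and 54.7% of them were below 0.

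**Figure D1:**
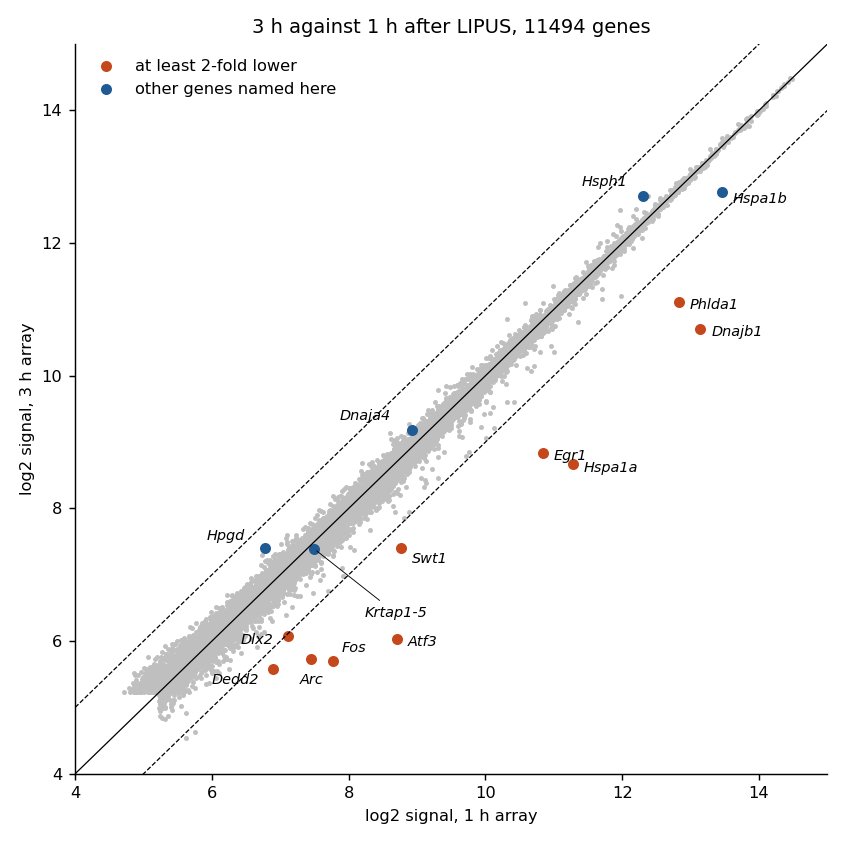
Each grey point is a gene, with its log2 signal on the 1 h array along the x axis and on the 3 h array along the y axis. The solid line marks equal signal and the dashed lines a 2-fold difference. The 10 genes in orange lie below the lower dashed line, no gene lies above the upper one, and Hsph1, Dnaja4, Hpgd, Krtap1-5 and Hspa1b in blue lie between the dashed lines.

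Atf3, Fos and Egr1, all transcription factor genes, were among the 5 steepest falls. Atf3, whose product is a stress-induced factor that mostly represses its targets, had a log2 signal of 6.45 without LIPUS, and after it 8.31 at 0.5 h, 8.71 at 1 h and 6.03 at 3 h. It fell by 2.68 on the log2 scale, or 6.39-fold, the steepest fall of the 11494 genes, and ended lower than in the control. Fos, which encodes a subunit of the AP-1 factor, ran at 5.08, 8.82, 7.76 and 5.70 in the same order and fell by 2.07 on the log2 scale. Its control value lay under the floor, and its decline had begun by 1 h. Egr1, a zinc finger factor gene of the immediate-early class, ran at 8.68, 11.83, 10.83 and 8.84 and fell by 2.00 on the log2 scale. At 3 h Egr1 was back within 0.16 of the control.

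Measured as an average over the 2 h between the arrays, the fall of Atf3 equals 1 halving every 44.9 min, that of Fos every 58.0 min and that of Egr1 every 60.0 min. These times are arithmetic on 2 arrays. They would equal a half-life only if synthesis had stopped at 1 h, and none of these 3 genes has a second measured probe set.

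The activity-regulated gene Arc, whose product is known from synapses, and the pleckstrin-homology-like gene Phlda1, a regulator of growth and survival, followed the same course. Arc had log2 signals of 5.83, 7.63, 7.44 and 5.74 in the control and at 0.5, 1 and 3 h, and fell by 1.70 on the log2 scale. Phlda1 had log2 signals of 11.26, 12.89, 12.83 and 11.11 and fell by 1.72 on the log2 scale. Both held a plateau from 0.5 h to 1 h and then dropped to slightly less than the control level.

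**Figure D2:**
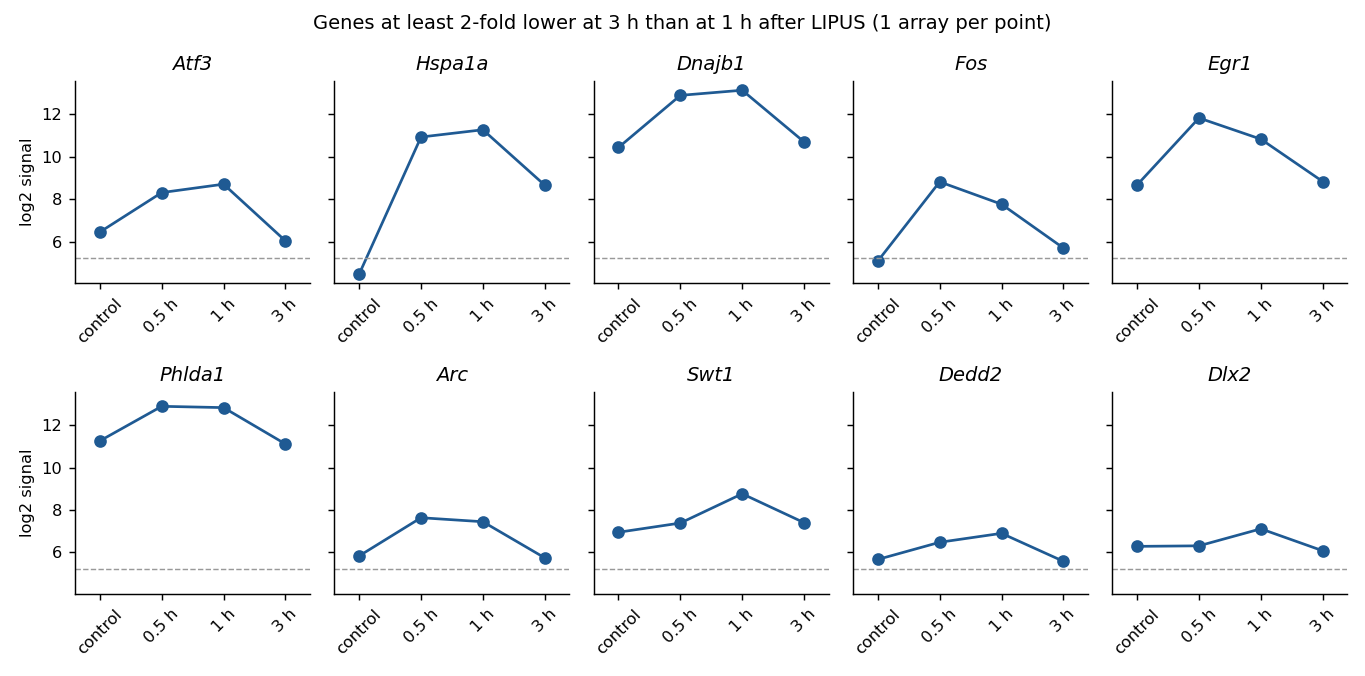
Log2 signal of the 10 genes that fell at least 2-fold, on the control array and at 0.5, 1 and 3 h, with 1 array per point. The dashed line is the floor at log2 5.23. Hspa1a is the gene whose 3 h point stays far above its control point, and 5 of the 10 (Atf3, Phlda1, Arc, Dedd2 and Dlx2) end below the control.

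Among chaperone genes the response split. Hspa1a, which encodes the inducible HSP70 chaperone, had log2 signals of 4.46, 10.93, 11.28 and 8.66 in the control and at 0.5, 1 and 3 h. It fell by 2.62 on the log2 scale, or 6.13-fold, from 1 h to 3 h and stayed 10.8-fold above the control, which lay under the floor and was raised to it. Dnajb1, whose product is the HSP40 partner that loads clients on HSP70, ran at 10.44, 12.90, 13.14 and 10.71 by its brightest probe set and fell by 2.44 on the log2 scale. Its second probe set ran at 10.31, 11.99, 12.02 and 11.09, a drop of only 0.93 that does not reach 2-fold.

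Hspa1b, the neighbouring gene for nearly the same HSP70 protein, moved much less than Hspa1a. It ran at 9.95, 13.44, 13.46 and 12.77 by its brightest probe set, with a log2 difference of −0.69 from 1 h to 3 h. Its other probe sets gave −0.84 and −0.91. The transcripts of both genes are so alike that a probe set for one can also read the other. The Hspa1b values lie near the top of the scale, where the highest signal on any array was 14.48. The part of shared signal or of the top of the scale in the difference between the genes was not tested.

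The upstream sequences of the chaperone genes are shown because they hold letter matches to the heat shock element, the type of site that HSF1 binds. The matches occur in genes that came down and in genes that stayed. They come from RefSeq, build GRCm38.p6, and each covers the 120 bases before a start site, read 5′ to 3′ on the gene's strand. Capitals mark a heat shock element pair, GAANNTTC or TTCNNGAA, each of which reads the same on both strands.
Hspa1a: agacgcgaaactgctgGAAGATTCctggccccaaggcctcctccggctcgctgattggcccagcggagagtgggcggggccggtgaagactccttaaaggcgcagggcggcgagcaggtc
Hspa1b: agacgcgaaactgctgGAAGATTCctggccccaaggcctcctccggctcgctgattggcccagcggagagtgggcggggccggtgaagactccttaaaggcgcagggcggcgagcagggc
Hsph1: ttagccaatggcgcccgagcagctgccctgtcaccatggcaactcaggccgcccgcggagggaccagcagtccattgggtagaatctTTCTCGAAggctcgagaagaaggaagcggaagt
Dnaja4: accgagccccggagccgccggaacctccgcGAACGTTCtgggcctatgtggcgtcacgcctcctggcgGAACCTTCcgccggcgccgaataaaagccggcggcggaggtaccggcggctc
The Hspa1a stretch lies at chr17:34972157-34972276 and the Hspa1b stretch at chr17:34959239-34959358, both on the minus strand. The Hsph1 stretch lies at chr5:149636337-149636456 on the minus strand and the Dnaja4 stretch at chr9:54699439-54699558 on the plus strand, each at 1 of its 2 listed start sites. The 120 bases before the other Dnaja4 start site hold no such pair.

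Over the 250 bases before their start sites, Hspa1a and Hspa1b differ at 3 positions, and in the printed 120 bases at 1. In both, the marked pair spans bases −104 to −97 from the start site. Of 32851 upstream windows of 250 bases in the RefSeq table, 12.8% hold a pair in either order. Among the 26 genes at least 2-fold above the control at 0.5 h or 1 h, 17 had a window in the table, and 6 held a pair, which were Hspa1a, Hspa1b, Hsph1, Dnaja4, Edn1 and Zfand2a. Counted by window, since a gene can have several, these were 7 of 21, or 33.3%. The matches are not all separate, since both Hsph1 windows hold the same pair and the Hspa1a and Hspa1b windows are near copies. Among the 52 genes at least 1.5-fold lower from 1 h to 3 h, 6 of 51 windows held a pair, or 11.8%, close to the share of all windows. A match describes these letters and is not evidence of binding.

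Hsph1 and Dnaja4 stayed up. Hsph1, which encodes an HSP110 protein that recharges HSP70 with ATP, had log2 signals of 10.93, 11.98, 12.30 and 12.70 in the control and at 0.5, 1 and 3 h. Its log2 difference from 1 h to 3 h was 0.40, and 0.45 by its other probe set. Dnaja4, another HSP40 co-chaperone gene, ran at 6.79, 8.56, 8.92 and 9.18, a difference of 0.25, but its 3 probe sets ranged from −0.61 to 0.33 and disagree on direction. Both genes were thus highest on the 3 h array by their brightest probe set.

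The gene lists were chosen with earlier results of these data known, so their counts are only a description. Of 17 measured members of the HSP70, HSP110 and exchange factor list, 1 fell and 3 were at least 1.5-fold lower, with a median of −0.06. Of all genes, 0.087% fell and 0.452% were at least 1.5-fold lower. Besides Hspa1a and Hspa1b, the exchange factor gene Bag3 was lower, at 10.67, 11.80, 11.98 and 11.21 and a log2 difference of −0.77. Hspa8, the constitutive HSP70 gene, was at 0.05 by its brightest probe set and at −0.01 and 0.02 by 2 other bright ones. A dimmer Hspa8 probe set, however, ran at 6.32, 8.65, 7.83 and 6.04 and was lower by 1.80 on the log2 scale, so the probe sets of this gene disagree and what the dim one reads was not tested. Of 19 DNAJ co-chaperone genes, 1 fell and the other 18 were within 1.5-fold, among them Dnajb4 at −0.55 and Dnaja1 at 0.16. None of 14 HSP90, HSP60 and partner genes and none of 6 small heat shock protein genes reached 1.5-fold. Among them Hsp90aa1 was at 0.06, Cryab at 0.04 and Hspb1 at 0.33. Cryab had reached 11.00 at 1 h from 10.05 in the control and still stood at 11.04 at 3 h.

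Of 9 measured genes for heat shock factors and the response to damaged proteins, 1 fell and 3 were at least 1.5-fold lower, with a median of −0.25. Dedd2, which encodes a death-effector-domain protein, had log2 signals of 5.66, 6.47, 6.89 and 5.57 in the control and at 0.5, 1 and 3 h and fell by 1.32 on the log2 scale. Zfand2a, whose product AIRAP sits on the proteasome during arsenite stress, ran at 9.01, 9.61, 10.01 and 9.07, a difference of −0.94, with its 3 measured probe sets between −0.94 and −0.84. Ccdc117, whose role is less settled, ran at 5.998, 7.22, 6.66 and 5.91, a difference of −0.75. By their brightest probe sets these 3 were back within 0.09 of the control at 3 h, unlike Hspa1a, Hsph1 and Dnaja4. The second Ccdc117 probe set ran at 5.86, 6.90, 6.67 and 6.10, a difference of −0.57, and stayed further above its control. One dimmer Zfand2a probe set stood at 7.40 in the control and 7.56 at 3 h.

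For the induced genes as a set, the share of the induction that was left can be given. The excess over the control at 1 h, on the linear scale with dim values raised to the floor, was compared with the excess at 3 h for the 26 genes that were at least 2-fold above the control at 0.5 h or 1 h. Of these, 9 fell, 12 were 1.5- to 2-fold lower, and 5 were within 1.5-fold. The median share of the 1 h excess left at 3 h was 15.3%. By brightest probe sets it was 3.38% for Egr1, 3.63% for Dnajb1, 7.98% for Fos, 15.04% for Hspa1a and 58.3% for Hspa1b. The shares depend on the probe set. The second Dnajb1 probe set was lower by only 0.93 on the log2 scale and so kept more. The other Hspa1b probe sets were lower by 0.84 and 0.91 and kept less. Of the 26 genes, 6 lay below the control at 3 h by their brightest probe sets. By the log2 difference from the control, Atf3 was the lowest at −0.42, followed by Ptgs2 at −0.20. By the share of the 1 h excess left, Ptgs2 and Ccdc117 were the lowest. The second Ccdc117 probe set lay above its control.

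Of these 26, 22 were chosen with the 1 h array (0.191% of 11497 genes were as far above the control there), which is also the start of the step, so their counts are a description. The choice was therefore repeated without either array of the step. At 0.5 h, 43 genes were at least 1.5-fold above the control, 0.372% of 11574. Of the 43, 38 were below 0 from 1 h to 3 h, and 25 were at least 1.5-fold lower, or 58.1%, beside 0.452% of all genes. Of the 16 that were at least 2-fold above the control at 0.5 h, which is 0.138% of 11574, 7 fell and 3 (Edn1, Dnaja4 and Hsph1) were within 1.5-fold, with a median log2 difference of −0.93.

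**Figure D3:**
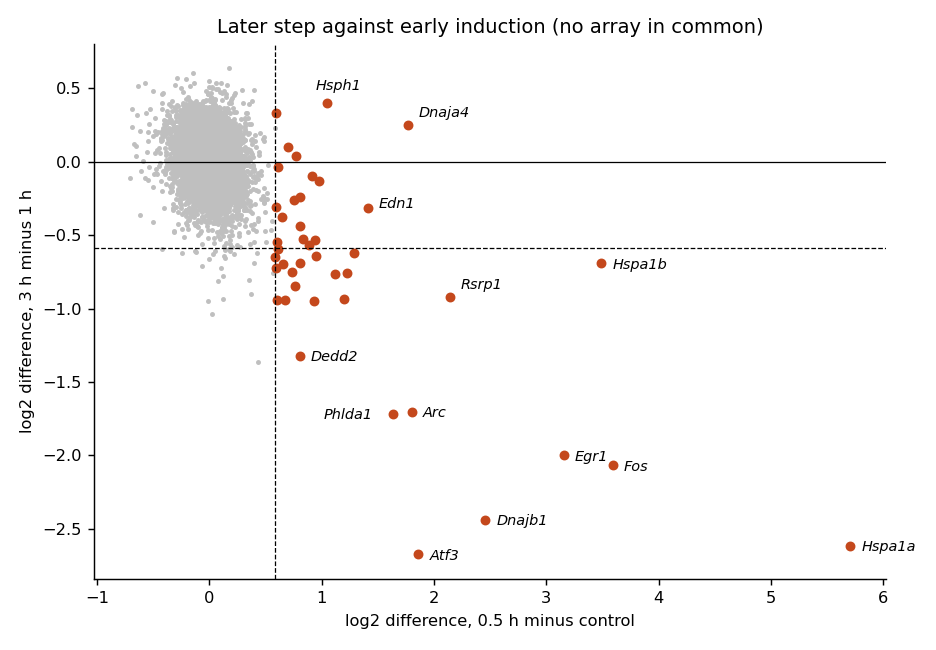
The log2 difference from 1 h to 3 h (y axis) is plotted against the log2 difference of the 0.5 h array from the control (x axis), 2 comparisons with no array in common. Orange points are the 43 genes at least 1.5-fold above the control at 0.5 h, and dashed lines mark 1.5-fold. Of the 43, 25 lie under the horizontal dashed line, and 5 lie above 0, among them Hsph1 and Dnaja4.

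Among the genes that were 1.5- to 2-fold lower, several are known for roles in signalling and RNA. Ptgs2, which encodes the inducible prostaglandin synthase COX-2, had log2 signals of 8.99, 10.18, 9.72 and 8.78 in the control and at 0.5, 1 and 3 h, a difference of −0.94, and −0.97 by its second probe set. Tent5a, a poly-A polymerase gene mutated in a brittle bone disease, ran at 6.67, 7.60, 7.92 and 6.97, a difference of −0.95. Nfil3, a repressor gene of clock output, ran at 7.99, 8.73, 9.13 and 8.38, a difference of −0.75. Ptgs2 ended under its control level, whereas Tent5a kept 17.2% and Nfil3 25.8% of the 1 h excess.

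Rsrp1, the gene of a nuclear protein rich in arginine and serine, ran at 8.46, 10.61, 9.77 and 8.85, and its 3 probe sets gave log2 differences from −1.27 to −0.73. Clk1, a kinase gene for splicing factors, ran at 8.47, 9.75, 9.22 and 8.60, a difference of −0.62. Both had peaked at 0.5 h and continued downward. The long noncoding RNA Neat1, the scaffold of paraspeckles, was at −0.76 by its brightest probe set and at 0.26 by the other, so its direction is not settled.

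A few induced genes did not come down by 1.5-fold between 1 h and 3 h. Krtap1-5, a keratin-associated protein gene, had log2 signals of 6.21, 7.12, 7.49 and 7.39 in the control and at 0.5, 1 and 3 h, and kept 88.8% of its 1 h excess. Edn1, which encodes the peptide endothelin, ran at 7.04, 8.45, 7.82 and 7.51 and kept 53.6%. Edn1 had peaked at 0.5 h, and its log2 difference was −0.63 from 0.5 h to 1 h and −0.31 from 1 h to 3 h. Most of its decline thus came before 1 h. The unnamed transcript C130075A20Rik ran at 5.51, 5.52, 6.53 and 6.30 and kept 71.0%. With Hsph1 and Dnaja4 these make up the 5 of the 26 that stayed within 1.5-fold of their 1 h level. Each of the 3 rests on 1 measured probe set.

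**Figure D4:**
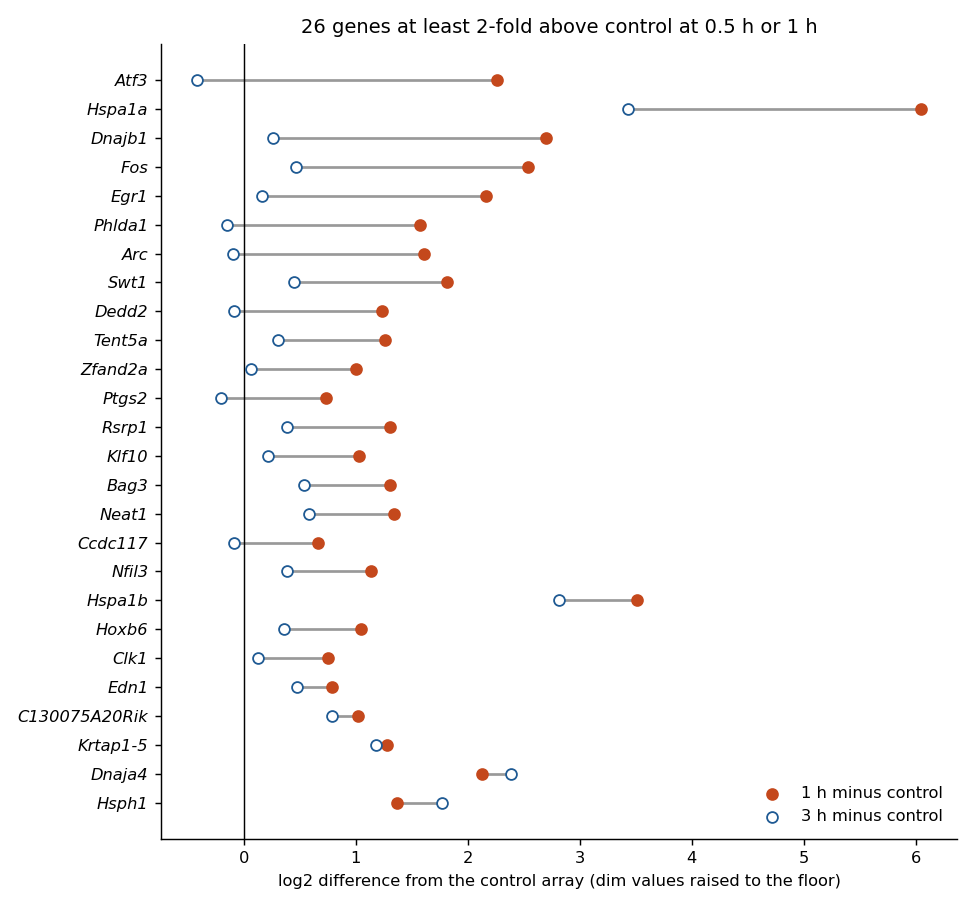
For the 26 genes at least 2-fold above the control at 0.5 h or 1 h, the filled point is the log2 difference of the 1 h array from the control and the open point that of the 3 h array, with values under the floor raised to it. Genes are ordered by the step from 1 h to 3 h, with Atf3 at the top and Hsph1 at the bottom. The open point lies left of 0 for 6 genes and right of the filled point for Dnaja4 and Hsph1.

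The 52 genes at least 1.5-fold lower fell into 3 courses. For 25 the 0.5 h array was already at least 1.5-fold above the control. For 12 more only the 1 h array was, which was so for 0.948% of all genes at 1 h with or without the earlier time, and the remaining 15 were within 1.5-fold of the control at both times. All 15 of the last kind, which include Id2, Smad7, Maff and Irs2, lay below the control at 3 h. This follows from the limits that define the course and is not a separate result. At 3 h, 50 of the 52 were within 1.5-fold of the control, and the exceptions, Hspa1a and Hspa1b, were above it. Of all genes at 3 h, 0.346% were at least 1.5-fold and 0.0691% at least 2-fold above the control, and 0.181% were at least 1.5-fold below. Of the 22 genes with more than 1 measured probe set, 19 were below 0 by every probe set, the brightest being so by the choice itself.

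In 9 of the 11494 genes the 1 h array lay at least 1.5-fold above both the 0.5 h and the 3 h array, here called a pulse. As far below both lay 0 genes. Both comparisons share the single 1 h array, so a high reading on it alone gives this pattern, and the count is a description. Among the 9, 4632427E13Rik stood at 6.68 at 1 h and 6.51 in the control, within 1.5-fold. Neat1 is among them by its brightest probe set only. Swt1, which encodes a nuclear RNA endonuclease, had log2 signals of 6.95, 7.38, 8.76 and 7.40 in the control and at 0.5, 1 and 3 h and fell by 1.36 on the log2 scale, and by 1.80 by its other probe set. Hes1, a repressor gene and classic target of Notch signalling, ran at 7.90, 7.89, 8.80 and 7.85, a difference of −0.95. Snai1, a repressor gene of the epithelial programme, ran at 7.88, 8.002, 8.88 and 7.94, a difference of −0.93. Junb, an AP-1 subunit gene, and Klf10, a zinc finger factor gene induced by TGF-beta, gave −0.78 and −0.81. Hes1 and Snai1 were at the control level at 0.5 h and again at 3 h.

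Dlx2, a homeobox gene of bone and brain development, also belongs to these pulses and lies just inside the 2-fold limit. It had log2 signals of 6.28, 6.30, 7.11 and 6.07, and fell by 1.04 on the log2 scale. Hes1 and Tent5a at −0.95 lie just outside.

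Of 37 measured AP-1 and immediate-early genes, 4 fell and 10 were at least 1.5-fold lower, with a median of −0.22. Of all genes, 0.087% fell and 0.452% were at least 1.5-fold lower. Since the lists were chosen with earlier results of these data known, the counts of each list are a description and not a measure of enrichment. Besides those described, Btg2, an antiproliferative gene, was at −0.94, and Jun, the partner of Fos, at −0.64. Maff was at −0.66. Csrnp1 was at −0.61 by its brightest probe set and at −0.02 by a dimmer one. The remaining 27 were within 1.5-fold, among them Egr2 at −0.57, Ier2 at −0.26, Myc at 0.16 and Fosl2 at 0.17. Ier2 had peaked at 9.58 at 0.5 h and was already down to 9.20 at 1 h, and Ier3 stayed at 9.17 and 9.15 at 1 h and 3 h.

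The upstream sequences of Fos and Atf3 are shown because both genes fell steeply and both hold the core of the cyclic AMP response element, TGACGT. Each covers the 120 bases before the start site in RefSeq, build GRCm38.p6, with the match on either strand in capitals. In Atf3 it reads in reverse.
Fos: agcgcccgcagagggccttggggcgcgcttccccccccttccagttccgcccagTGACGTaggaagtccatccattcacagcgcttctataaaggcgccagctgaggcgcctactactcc
Atf3: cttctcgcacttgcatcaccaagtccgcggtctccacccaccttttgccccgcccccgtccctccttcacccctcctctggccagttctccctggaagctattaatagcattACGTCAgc
The Fos stretch lies at chr12:85473770-85473889 on the plus strand and the Atf3 stretch at chr1:191183334-191183453 on the minus strand. Of all 32851 upstream windows of 250 bases, 6.47% hold the core on either strand. Of the 52 genes at least 1.5-fold lower, 38 had a window and 9 held the core. By window this was 9 of 51, or 17.6%. The genes include Btg2, Dlx2, Errfi1, Rsrp1 and Zfand2a beside Fos and Atf3. Other motifs were scanned in the same windows. A TATA box, TATAAA, was in 11.8% of the 51 windows and 12.4% of all. The CArG box, an A/T-rich stretch between CC and GG, was in 0 of the 51 and 1.47% of all. With so rare a motif, 0 of 51 windows tells little. Sites further upstream than 250 bases, and genes without a window, were not scanned.

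The MAP kinase feedback list, which also holds Gadd45 and Phlda genes, was mixed. All its measured Dusp, Spry and Spred genes were within 1.5-fold. Of 21 measured, 1 (Phlda1) fell, 3 were at least 1.5-fold lower and 18 were within 1.5-fold, with a median of −0.15. Errfi1, an inhibitor gene of the EGF receptor, was at −0.85 and Gadd45g, a stress sensor gene, at −0.59. The phosphatase gene Dusp1 was at −0.13 after log2 signals of 10.05, 11.03, 10.57 and 10.44 in the control and at 0.5, 1 and 3 h, so most of its decline came before 1 h. Dusp6 was at 0.10.

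Of 16 measured BMP targets and ID genes, 1 (Dlx2) fell, 3 were at least 1.5-fold lower and 13 were below 0, with a median of −0.27. Of all genes, 0.087% fell, 0.452% were at least 1.5-fold lower and 54.7% were below 0. Id2, which encodes an inhibitor of helix-loop-helix factors, ran at 9.88, 9.99, 10.32 and 9.60, a log2 difference of −0.72, as was that of its second probe set, while its remaining, dim probe set was at −0.27 as a bound. Smad7, an inhibitor gene of TGF-beta and BMP receptors, was at −0.71 and Id1 at −0.49. Both Id1 and Smad7 were highest on the 1 h array of the 4.

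Among 16 integrated stress response genes, 1 (Atf3) fell and 2 were at least 1.5-fold lower, with a median of −0.11. Chac1, which encodes a glutathione-degrading enzyme, ran at 9.31, 9.69, 10.12 and 9.22, a difference of −0.90, while its upstream factor genes Atf4 and Ddit3 were at 0.10 and −0.07. Of 18 endoplasmic reticulum chaperone and unfolded protein response genes, none reached 1.5-fold, and the median was 0.04. Herpud1 at −0.55 and Dnajb9 at −0.45 were the lowest of them.

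Of 24 measured CLK kinase, SR protein and nuclear RNA genes, 1 (Swt1) fell, 4 were at least 1.5-fold lower and 21 were below 0, with a median of −0.17 beside −0.01 for all genes, of which 54.7% were below 0. Srsf5, a splicing factor gene, was at −0.56, Clk4 at −0.53 and Luc7l at −0.47. The nuclear noncoding RNA Malat1 was at 0.36 by its brightest probe set, with log2 signals of 12.65, 11.97, 11.92 and 12.28, but its 7 measured probe sets ranged from −0.38 to 0.43 and do not give 1 direction.

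Factors that bind, shorten, lengthen or break down messages were also listed. Of 24 measured, 0 fell, 1 was at least 1.5-fold lower and 23 were within 1.5-fold, with a median of −0.03. The lower one was Tent5a, which as a poly-A polymerase gene is no decay factor. Zfp36, which encodes the AU-rich element binding protein tristetraprolin, had log2 signals of 7.78, 7.74, 8.16 and 8.16 in the control and at 0.5, 1 and 3 h. Its relative Zfp36l1 ran at 8.36, 9.19, 9.31 and 8.78. Zfp36 thus kept its 1 h level, and Zfp36l1 was at −0.53.

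**Figure D5:**
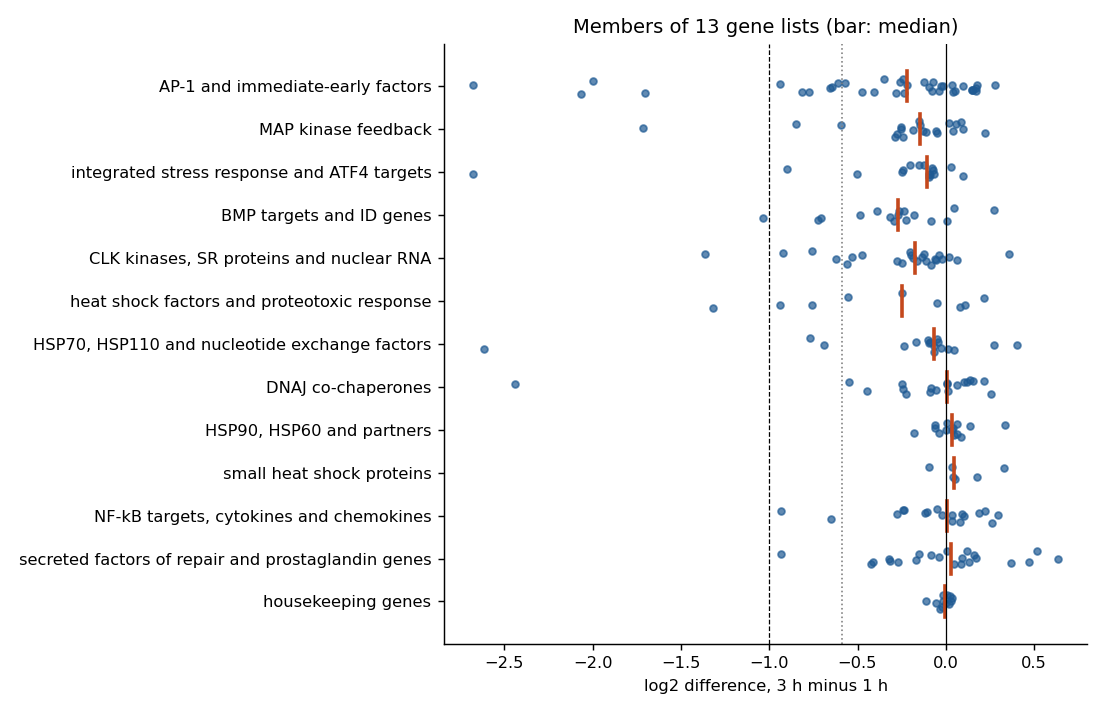
Each point is a measured gene of the list named on the y axis, at its log2 difference from 1 h to 3 h on the x axis, spread vertically to be visible, and the orange bar is the list's median. The dashed line marks 2-fold lower and the dotted line 1.5-fold lower. Medians run from −0.27 for BMP targets and ID genes to 0.05 for small heat shock proteins, and the housekeeping genes lie at −0.01.

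Inflammatory and secreted genes moved little as lists. Of 18 NF-kB targets and cytokines, 0 fell and 2 (Ptgs2 and the chemokine gene Ccl2, at −0.65) were at least 1.5-fold lower, with a median of 0.01. Of 22 secreted repair and prostaglandin genes, Ptgs2 was lower and Hpgd higher by 1.5-fold. Hpgd, which encodes the enzyme that inactivates prostaglandins, ran at 6.21, 6.38, 6.77 and 7.41 and had the highest step of the 11494 genes, at 0.64. Ptges, another prostaglandin synthesis gene of the list, was at 0.13 as a bound, and Hpgd rests on 1 measured probe set.

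The upper end of the step was shallow. The 15 highest differences with both arrays above the floor ran from 0.50 to 0.64, and for 14 of the 15 the 1 h array lay below the control. The ranking uses the 1 h array and favours genes that are low on it, so this count is only a description. For 7 of the 15 both arrays were within 1 of the floor, as for 18.3% of all genes and for 2 of the 52 lower genes. Among the brighter ones, Bmp4, which encodes a bone morphogenetic protein, ran at 10.82, 10.64, 10.58 and 11.10. Ajuba, a LIM protein gene and YAP/TEAD target, ran at 10.95, 10.38, 10.32 and 10.85, and Plp2, a membrane protein gene, at 12.92, 12.79, 11.97 and 12.50. Ajuba and Plp2 were lower at 1 h than in the control and part of the way back at 3 h.

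The fallen genes were mostly short in genomic span. The median span in RefSeq was 3.62 kb for the 10 fallen genes, 11.6 kb for the 52 lower genes and 22.6 kb for the 11474 measured genes with a span. Of the 10 fallen genes, 7 span under 5 kb, as do 12.7% of all measured genes with a span.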

How the data were processed

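Transcript levels in ST2 cells were measured on Affymetrix 3' expression arrays, 1 per group. Per the labels' protocols, 500 ng of RNA with an integrity number above 9.5 was labelled from the 3' end. The authors deposited 1 value per probe set, on a log2 scale judged from the range of the values. How probes were summarised and arrays scaled was not given in the sources used here. Either step can shrink or shift differences.

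Of 45101 probe sets, 34945 had 1 symbol in the platform annotation and were used. Values under the median of all values were raised to it, and a difference with an array at or under it is a bound. No sequencing depth applies, and the number of arrays limits the precision. Calls use a 2-fold rule without a test. The members and 36 gene lists were chosen with earlier results of these data known.

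Named genes are all those past 2-fold in the step or 2-fold above the control at 0.5 h or 1 h, the 15 next falls and 15 largest rises, list members past 1.5-fold and a panel of 46 genes. Other names were chosen after their values were seen. Alternatives were the floor, scaling, probe set choice, threshold and starting level. Python 3.11.15, pandas 2.3.3, R 4.3.3 and limma 3.58.1 were used.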

Additional observations from a re-analysis of the deposited data

How the results depend on the processing

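The 10 falls all stayed at least 2-fold with median centring, quantile normalization, cyclic loess, a lower floor or none, the mean over probe sets, both arrays above the floor, and probe sets without the _s_at and _x_at suffixes. A floor at the 75th percentile left 5 falls. Atf3 was then at −0.99 and Fos at −0.05 as bounds, and 3 others lay under the floor on both arrays. Second probe sets gave 2 falls among all genes. Of the 10, 2 have a second probe set above the floor, and 1 of them, Swt1, still fell, while Dnajb1 was at −0.93. From the mean of the 0.5 h and 1 h arrays, Swt1 was at −0.67 and Dlx2 at −0.63. A 1.5-fold threshold gave 52 lower and 2 higher genes. Of the genes 2-fold above the control at 0.5 h, 7 fell, 4 with the 75th percentile floor, 0 by second probe sets, and 13 at 1.5-fold. With the 75th percentile floor, 1 AP-1 and immediate-early gene fell and 0 of the heat shock factor, stress response and BMP lists. By second probe sets 0 of the HSP70, DNAJ, heat shock factor, AP-1, MAP kinase, stress response and BMP lists fell. Except in the DNAJ list, the fallen members of these lists have no second measured probe set. They were dropped under this setting and not measured again. With the mean starting level 2 heat shock factor list genes fell and 0 BMP genes. Of 720 values of named genes under alternatives, 625 moved by less than the SD per probe set of 0.10 and 0 changed sign among called genes. No paired analysis was possible because each group has 1 array.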

Other observations

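The genes described here were chosen after their values were seen, apart from the lists they belong to. Of 16 measured circadian clock genes, 1 (Nfil3) was at least 1.5-fold lower, and 8 were above 0. Dbp, an output gene of the clock, had a log2 signal of 8.25 without LIPUS, and after it 7.95 at 0.5 h, 7.43 at 1 h and 7.78 at 3 h. Nr1d1, which encodes the repressor REV-ERB alpha, ran at 7.84, 7.51, 7.17 and 7.51 in the same order, and Cry2, another repressor gene, at 6.70, 6.28, 5.90 and 6.30. These 3 were lowest on the 1 h array and higher, but under the control, at 3 h.

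Of 15 measured p53 targets, 1 (Btg2) was at least 1.5-fold lower and 12 were below 0, beside 54.7% of all genes, with a median of −0.18. Plk2, a polo-like kinase gene, was at −0.58 and Mdm2, the gene of the p53 ubiquitin ligase, at −0.40. Of 18 G1/S and DNA replication genes and 19 ribosome biogenesis genes, 16 of each were below 0, beside 54.7% of all genes, with medians of −0.11 and −0.10 and none past 1.5-fold. Proteasome subunit genes had a median of −0.04 over 27 genes, and cholesterol synthesis genes −0.10 over 15. Actin cytoskeleton genes, at −0.01 over 18, and G2/M genes, at −0.01 over 22, matched the median of all genes to 2 decimals.

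Among 2690 measured probe sets without a single symbol, 1 was at least 2-fold lower and 0 were as much higher.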
